A study of Mus musculus and Acomys cahirinus with 25 samples.

Results

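The genes described are the ligands and receptors of epidermal growth factor receptor (EGFR) signaling in wounded skin: the ligands Areg, Ereg, Hbegf, Tgfa, Epgn and Btc, and the receptors Egfr, Erbb2 and Erbb3. They were chosen by symbol, not by their values, and are 9 of the 24500 genes counted in each of 25 bulk RNA-seq libraries of back skin. The libraries came from a study of wound-induced hair neogenesis, in which new hair follicles form inside a large healing wound. In the lab mouse these follicles appear in the wound center, and the spiny mouse (Acomys cahirinus), a rodent that heals large wounds with little scarring, also regrows them.

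The 13 lab mouse (Mm) libraries were taken on post-wound day 14 (PWD14) from young mice. C57BL/6J was the main strain of the study, which used wild-type Twist1+/+ mice as controls of its transgenic mice, and the labels give no strain per library. Wild-type (WT) epidermis had 2 libraries of the wound center and 2 of the margin, and WT dermis had 5 of the center and 2 of the margin. A further 2 center dermis libraries were labelled knockout (KO). By the methods of the study, this is a Twist1 conditional allele crossed to a K14-Cre driver, which acts in keratinocytes, so that the deletion was in the epidermis while the libraries are dermis. The 12 spiny mouse (Ac) libraries were WT young adults with no region given. Their epidermis had 1 library of unwounded skin (PWD0), 2 of PWD14, 2 of PWD21 and 1 of PWD28, and their dermis had 2, 1, 2 and 1. The labels give no treatment other than wounding, and the wound days used are those of the labels, from which the list of libraries in the study differs slightly for the spiny mouse. The labels do not say that replicates came from separate animals. The study calls its RNA-seq replicates independent but does not tie libraries to animals. The p-values measure the spread between these samples, part of which may be technical.

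EGFR ligands are made as membrane-anchored precursors on the cell surface, cut free by metalloproteases such as ADAM17, and bind EGFR on the same or nearby cells. Ligand-bound EGFR pairs with itself, with ERBB2, which has no known ligand of its own, or with ERBB3, whose own kinase is weak, and the pair signals through RAS and ERK and through PI3K. In skin, this pathway is best known for keratinocyte proliferation, migration over the wound and the control of hair follicle growth.

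In the mouse genome (GRCm38, the build of the files), 4 of the 6 ligands are neighbors on chromosome 5. Epgn lies at chr5:91027517-91035212, Ereg at chr5:91074617-91093649 and Areg at chr5:91139599-91148432, all on the plus strand, and Btc lies at chr5:91357261-91402994 on the minus strand. The gaps are 39.4 kb between Epgn and Ereg, 45.9 kb between Ereg and Areg, and 208.8 kb between Areg and Btc, and the group spans 375.5 kb. The promoters of Epgn, Areg and Btc are shown because these neighbors took different courses in the spiny mouse epidermis. The sequences and the gene order are those of the mouse genome, and those of the spiny mouse were not examined. Each runs from 250 bases before to 50 bases after the RefSeq start of the gene (GRCm38.p6), 5' to 3' on the strand of the gene, at chr5:91027267-91027566, chr5:91139349-91139648 and chr5:91402945-91403244, and capitals mark motif matches.
Epgn: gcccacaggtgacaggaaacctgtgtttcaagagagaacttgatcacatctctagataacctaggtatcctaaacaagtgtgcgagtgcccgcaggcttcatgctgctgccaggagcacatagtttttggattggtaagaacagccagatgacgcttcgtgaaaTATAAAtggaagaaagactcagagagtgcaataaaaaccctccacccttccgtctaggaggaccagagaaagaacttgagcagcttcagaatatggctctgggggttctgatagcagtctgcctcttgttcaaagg
Areg: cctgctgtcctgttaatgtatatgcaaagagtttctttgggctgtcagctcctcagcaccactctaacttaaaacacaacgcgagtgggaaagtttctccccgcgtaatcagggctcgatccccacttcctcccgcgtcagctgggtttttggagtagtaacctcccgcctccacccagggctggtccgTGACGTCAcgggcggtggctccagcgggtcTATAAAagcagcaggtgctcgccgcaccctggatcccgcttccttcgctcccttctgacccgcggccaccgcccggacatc
Btc: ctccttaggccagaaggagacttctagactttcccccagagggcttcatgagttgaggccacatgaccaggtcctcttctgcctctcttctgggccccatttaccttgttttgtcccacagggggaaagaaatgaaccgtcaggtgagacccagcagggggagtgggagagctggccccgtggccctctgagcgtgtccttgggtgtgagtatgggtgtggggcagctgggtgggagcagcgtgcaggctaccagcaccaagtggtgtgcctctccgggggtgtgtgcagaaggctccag
The motifs searched, on both strands, were the AP-1 site TGANTCA, the cyclic AMP response element (CRE) TGACGTCA and the TATA element TATAAA. The Areg window held a CRE beginning at position -61 and a TATA element at -31, counted from the start of the gene as 0, the Epgn window held a TATA element at -86, and the Btc window held none of these letters. Among 32851 promoters of the same length, 1.79% held the CRE, 13.6% the TATA element and 7.81% the AP-1 site. The windows of Tgfa, Egfr and Erbb2, which were also in the table, held no match.

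Levels are given as read counts scaled to a fixed total of reads on genes (CPM), one value per library in order of replicate. Differences are log2 fold changes with their standard errors (SE) after TMM scaling, a step that corrects for libraries dominated by a few genes, from edgeR's quasi-likelihood test. A gene was called changed when its false discovery rate (FDR), adjusted over all genes tested, was under 0.05. Because TMM rescales the libraries, a fold change can differ from the ratio of the CPM: with library size alone, the median log2 fold change of all genes was -0.80 rather than -0.08 for center epidermis against dermis and -0.59 rather than -0.04 for spiny mouse epidermis at PWD14 against PWD21. Depth was 19413261 to 86532134 reads on genes in the lab mouse and 5669760 to 34751956 in the spiny mouse, whose reads were aligned to the mouse genome. Spiny mouse levels were therefore not compared with lab mouse levels. Summed markers matched the labelled layers. In the epidermis, 8 basal keratinocyte markers summed to 10274 to 57110 CPM and 15 fibroblast markers to 600 to 6786 CPM, while in the dermis the fibroblast markers summed to 71022 to 181312 CPM. Some dermis libraries stood apart. One was KO replicate 2, where 8 suprabasal keratinocyte markers summed to 29892 CPM against 6.95 to 362 CPM in the 5 WT center dermis libraries. The others were both spiny mouse PWD0 dermis libraries, whose 6 wound-edge keratinocyte markers summed to 9558 to 16086 CPM, against 520 to 1892 CPM in the other spiny mouse dermis libraries. That skin was unwounded, and the unwounded epidermis held 7500 CPM of these markers, so they do not by themselves mark a wound. In bulk tissue, fewer cells of a type and less RNA per cell cannot be told apart.

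**Figure D1:**
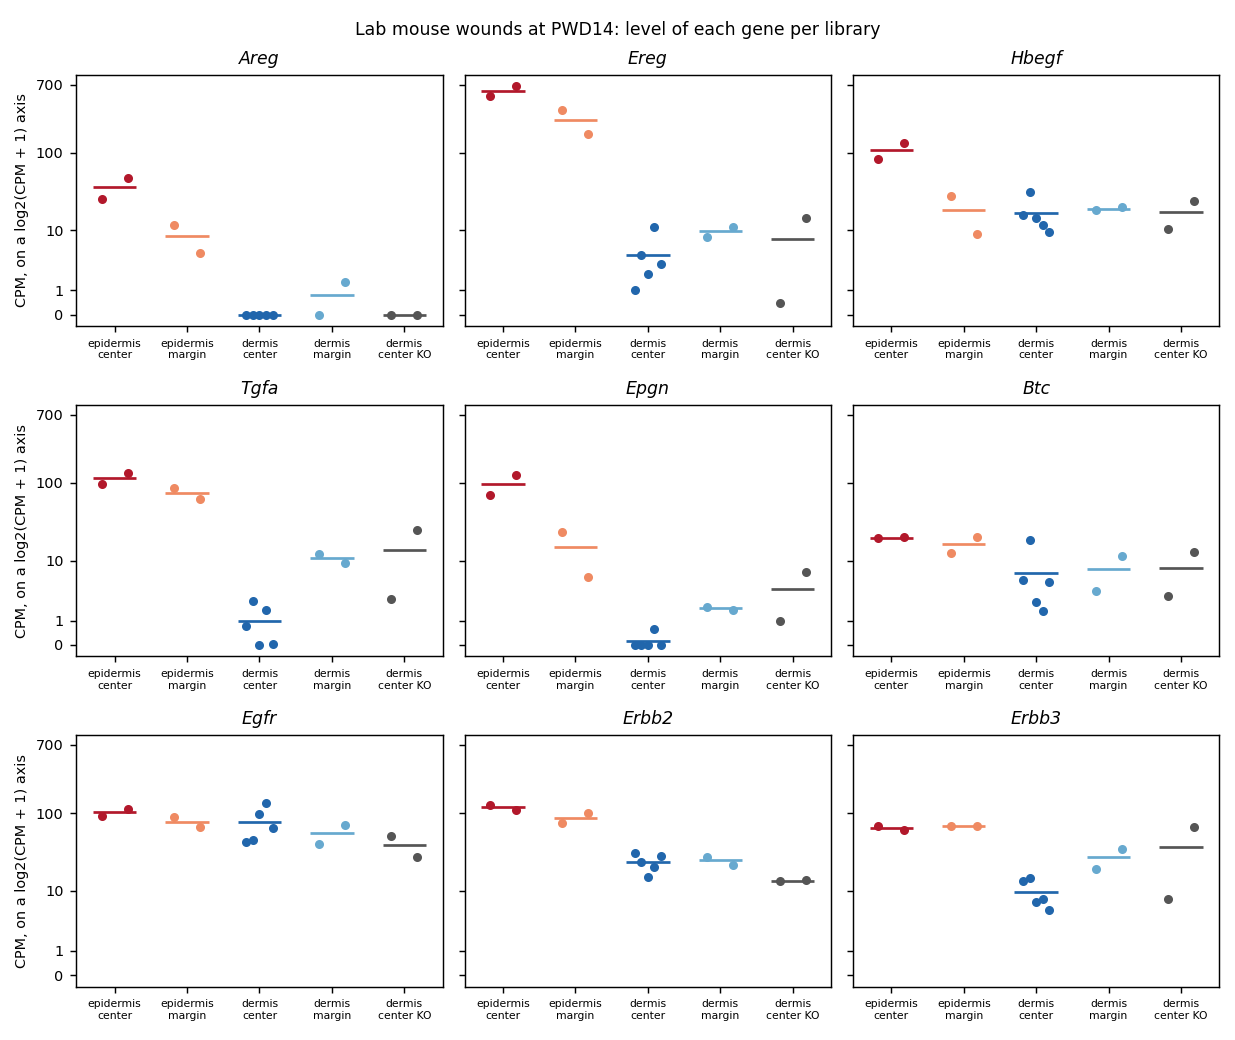
Level of each ligand and receptor in every lab mouse library at PWD14, in CPM on a log2(CPM + 1) axis, by layer, region and genotype; each point is 1 library. Every epidermis library lies above every dermis library for Areg, Ereg, Tgfa and Erbb2, while the 2 layers overlap for Hbegf, Epgn, Btc, Egfr and Erbb3. The overlap of Epgn and Erbb3 comes from KO replicate 2 alone.

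The first question was whether the wound center, where follicles form, differed from the margin in the lab mouse epidermis. At PWD14, 7 of the 9 genes, all but Btc and Erbb3, had higher values in both center libraries than in both margin libraries. How many of all genes did so was not counted, so the 7 cannot be set against a share of all genes. None of the 9 genes was called, in a comparison where 1.24% of all 14165 genes tested were. The study, by its own edgeR analysis at p or FDR under 0.05, listed Areg, Ereg, Epgn and Hbegf as differentially expressed between these regions. Amphiregulin (Areg), a low-affinity EGFR ligand of epithelia, was 26.3 and 48.0 CPM in the center and 11.9 and 4.88 CPM at the margin. The log2 fold change was 2.10 ± 0.56 (SE, n = 2 and 2, FDR = 0.124). Epigen (Epgn), another low-affinity ligand, was 70.3 and 124 CPM against 24.1 and 5.99 CPM (2.62 ± 0.71, FDR = 0.127). In both genes the lowest center library was above the highest margin library.

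Heparin-binding EGF-like growth factor (Hbegf), a ligand known from migrating keratinocytes, was 84.4 and 133 CPM in the center and 28.3 and 8.83 CPM at the margin (2.47 ± 0.61, FDR = 0.113). Epiregulin (Ereg), which binds EGFR and ERBB4, was 499 and 673 CPM against 342 and 171 CPM (1.07 ± 0.41, FDR = 0.199). For these 2 genes too the groups did not overlap. The other 5 had log2 fold changes between -0.18 (Erbb3) and 0.52 (Tgfa), and among them Tgfa, Egfr and Erbb2 did not overlap either. At an unadjusted level, 4 of the 9 genes had p under 0.05 by edgeR, as did 3328 of all 14165 genes tested. The call rested on the tool: DESeq2 called 3 of them, Areg (FDR = 0.00537), Hbegf and Epgn, and edgeR's likelihood-ratio test called the same number, while the edgeR 3 estimate of the quasi-likelihood dispersion called none. Leaving out a library decided it as well. Without margin replicate 1, the FDR was 3.5e-06 for Areg, 6.1e-08 for Epgn, 2.4e-08 for Hbegf and 5.2e-07 for Ereg, and without margin replicate 2 it was 3.5e-05, 9.2e-08, 1.8e-08 and 0.000413. Each of these fits left 1 margin library. Without center replicate 1, Epgn (FDR = 0.0300) and Hbegf (FDR = 0.0331) were called.

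Markers of other cells also differed in this comparison. The fibroblast markers summed to 5596 to 6786 CPM in the center epidermis and 880 to 2545 CPM at the margin, and 2 of 15, Pdgfrb and Col5a1, were called higher. The 6 markers of wound-edge keratinocytes, among them Krt6a, Krt16 and Krt17, summed to 15283 to 21974 CPM against 6751 to 10553 CPM. The neutrophil markers, among them S100a9, which keratinocytes also make, summed to 254 to 404 CPM against 41.3 to 111 CPM. Retnlg of this list had no read in either region. The endothelial markers summed to 20.7 to 32.0 CPM against 1.68 to 6.63 CPM. The part of all these markers in the ligand differences was not tested. Of the rest of the pathway, 1 of 12 ERK response genes was called, the AP-1 subunit Junb, at 235 CPM on average in the center and 51.4 CPM at the margin (2.09 ± 0.22, FDR = 0.0367). None of the 4 other ligands tested, 10 shedding genes, 18 feedback inhibitors or 23 adaptors and RAS-ERK components was called.

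In the lab mouse dermis Tgfa, Epgn and Ereg had lower values in center replicates 1 and 2 than at the margin, while Hbegf and Btc overlapped between the regions. Of the 8 genes tested between center (replicates 1 and 2) and margin, none was called, against 0.85% of all genes. By edgeR, 2 of them (Tgfa and Epgn) had an unadjusted p under 0.05, as did 2329 of all 14698 genes tested. DESeq2 called none and edgeR's likelihood-ratio test 1, Epgn. Tgfa, the transforming growth factor alpha of keratinocytes, was 0.725 and 2.47 CPM in the center and 12.1 and 9.42 CPM at the margin (-2.71 ± 0.87, FDR = 0.203). Epgn had no read in either center library and 1.94 and 1.71 CPM at the margin, which is at least 11.8-fold higher there against a floor of 3 counts in a library. Areg, untested because it had too few reads, had 1.53 CPM in 1 margin library and no read in the other 8 dermis libraries. Ereg was 0.997 and 4.53 CPM against 8.23 and 11.2 CPM (-1.77 ± 0.82, FDR = 0.331). With center replicates 1 and 2, the groups did not overlap for Tgfa, Epgn and Ereg, but none passed the adjusted test. Over all 5 WT centers Ereg was 0.997 to 11.0 CPM and overlapped the margin, while Tgfa and Epgn did not. With all 5 WT centers, Tgfa was called (-3.47, FDR = 0.0288).

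Keratinocyte and hair markers differed between these libraries as well. The suprabasal markers summed to 1431 to 3456 CPM in the margin dermis and the hair follicle markers to 485 to 574 CPM, against 6.95 to 362 CPM and 0 to 4.71 CPM over the 5 WT center libraries. Of 8 suprabasal markers 7, and of 9 hair follicle markers 5, were called lower in the center. Whether they account for Tgfa, Epgn and Ereg was not tested. Hbegf (16.0 and 32.2 CPM against 18.5 and 20.4 CPM), Btc, Egfr and Erbb2 overlapped between the regions. Their direction was not stable: with all 5 WT centers in the comparison, the log2 fold changes of Hbegf, Btc and Egfr were -0.06, -0.08 and 0.64, against 0.38, 0.75 and -0.24. No gene of the pathway lists was called.

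The KO comparison addressed what loss of epidermal Twist1 did to the underlying center dermis. None of 8 genes tested was called between KO and WT (replicates 3 to 5), where 0.0565% of all genes, 8 in number, were. Of the 8 ligands and receptors tested, 4 had an unadjusted p under 0.05 by edgeR: Tgfa, Epgn, Erbb3 and Egfr. The same held for 1631 of all 14163 genes tested. DESeq2 called 2, Erbb3 (FDR = 0.0469) and Egfr (FDR = 0.0344), and 1 fit over all 13 lab mouse libraries called 2 others, Tgfa (FDR = 0.0193) and Epgn (FDR = 0.0261). Twist1 itself was 73.4 and 44.0 CPM in the KO dermis and 36.3 to 159 CPM in the WT center dermis, which does not check an epidermal deletion. Erbb3 was 7.72 CPM in KO replicate 1 and 67.1 CPM in KO replicate 2, against 6.99, 7.66 and 5.43 CPM in WT (2.46 ± 0.80, FDR = 0.330). In WT replicates 1 and 2, outside this comparison, Erbb3 was 13.4 and 14.9 CPM, above KO replicate 1. Tgfa was 2.73 and 25.3 CPM against 0, 1.71 and 0.0380 CPM (4.85 ± 1.43, FDR = 0.271). KO replicate 2, the library high in keratinocyte markers, held the high value in both genes and also in Epgn, at 6.87 CPM against 0.988 CPM in KO replicate 1.

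In KO replicate 1 the suprabasal markers summed to 393 CPM and the basal markers to 750 CPM, against 6.95 to 33.4 CPM and 121 to 182 CPM in the 3 WT libraries compared, so that both KO libraries were above all 3. Their part in these differences was not tested. Without KO replicate 1, which leaves only the library high in keratinocyte markers, the FDR was 0.000716 for Erbb3, 0.00362 for Tgfa, 0.0432 for Epgn and 0.0162 for Egfr. Egfr, the shared receptor of all 6 ligands, went in the opposite direction. It was 52.0 and 28.0 CPM in KO against 97.3, 134 and 64.2 CPM (-1.29 ± 0.41, FDR = 0.319). WT replicates 1 and 2, outside this comparison, were 43.7 and 45.3 CPM and lie within the KO range. No gene of the pathway lists was called.

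**Figure D2:**
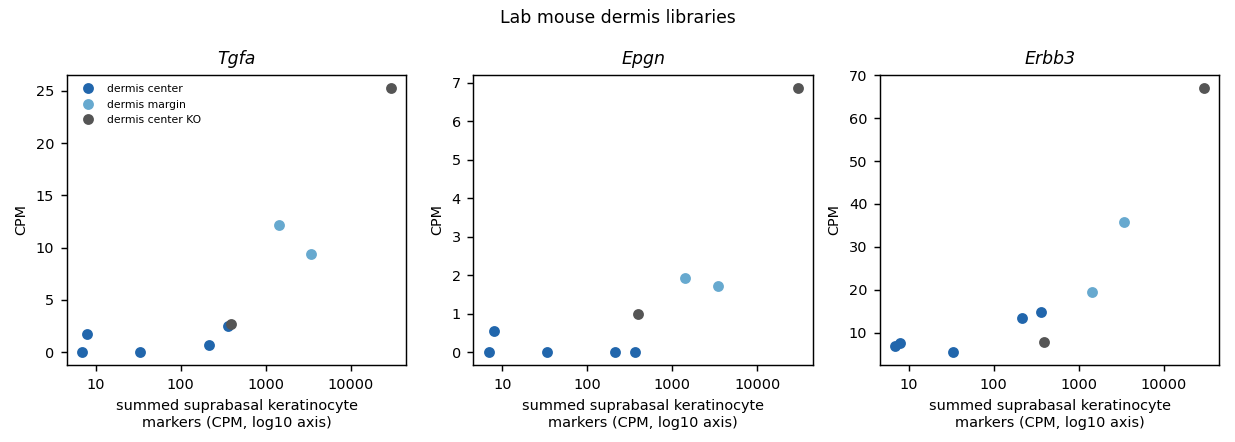
Level of Tgfa, Epgn and Erbb3 (CPM) in each of the 9 lab mouse dermis libraries against the sum of 8 suprabasal keratinocyte markers (CPM, log10 axis). KO replicate 2 lies at the far right with 29892 CPM of markers and holds the highest value of all 3 genes, with the 2 margin libraries next.

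The layers were compared next, as ligands and receptors can be made by different tissues. In the wound center, all 9 genes were called higher in the epidermis than in the dermis, in a comparison where 51.8% of all genes were called in either direction. At the margin, 8 of 9 were called higher, against 47.7% of all genes. Epidermis libraries were paired-end and dermis libraries single-end, so that layer and read type cannot be told apart. Areg, with 26.3 and 48.0 CPM in the center epidermis and no read in 5 center dermis libraries, was at least 240-fold higher against a floor of 3 counts in a library. Ereg was 499 and 673 CPM against 0.997 to 11.0 CPM with a median of 3.26 CPM (7.81 ± 0.64, FDR = 1.5e-05). Epgn was 70.3 and 124 CPM against no read in 4 libraries and 0.554 CPM in the fifth (10.63 ± 0.88, FDR = 5.1e-06). The layers did not overlap for any ligand.

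Among the receptors, Erbb3 in the center was 69.2 and 60.9 CPM in epidermis and 5.43 to 14.9 CPM in dermis (3.49 ± 0.35, FDR = 4.0e-05). Erbb2, the receptor with no known ligand, was 125 and 110 CPM against 15.2 to 31.8 CPM (3.01 ± 0.26, FDR = 1.8e-05). Egfr was 93.0 and 113 CPM against 43.7 to 134 CPM with a median of 64.2 CPM (1.14 ± 0.40, FDR = 0.0384). The layers overlapped for Egfr alone, and its call was lost with the edgeR 3 estimate of the quasi-likelihood dispersion (FDR = 0.0581) and with library size alone (0.42, FDR = 0.394). It was also lost without center epidermis replicate 1 (FDR = 0.0871) or 2 (FDR = 0.191) and without center dermis replicate 1, 2 or 5 (FDR = 0.0612, 0.0551 and 0.0850). Btc, betacellulin, lost its call without either center epidermis replicate (FDR = 0.0602 and 0.0619), with library size alone (FDR = 0.0780) and with dermis center replicates 1 and 2 alone (FDR = 0.0699).

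Hbegf was the exception at the margin, at 28.3 and 8.83 CPM in epidermis and 18.5 and 20.4 CPM in dermis (0.78 ± 0.57, FDR = 0.285). These overlapped, whereas in the center Hbegf was 84.4 and 133 CPM against 9.45 to 32.2 CPM (3.43 ± 0.38, FDR = 7.1e-05). Without margin epidermis replicate 2, margin Hbegf was called (FDR = 0.00666). At the margin the edgeR 3 estimate lost Areg (FDR = 0.0898) and Btc (FDR = 0.0571), and Btc and Egfr lost their calls without margin dermis replicate 1 (FDR = 0.178 and 0.184) and with library size alone (FDR = 0.158 and 0.307). Parts of the pathway around the ligands also differed between the layers in the center, where 51.8% of all genes were called. Of 12 ERK response genes, 9 were called higher in center epidermis and none lower, led by Fosl1 (4.41), Fos (3.41) and Phlda1 (3.16) on the log2 scale. Of 10 shedding genes, 5 were called higher, among them the rhomboid protease Rhbdl2 (6.84) and the ADAM17 partner Rhbdf2 (2.46), and 2 lower, led by the metalloprotease Adam12 (-4.30). Of 23 adaptors and RAS-ERK components, 12 were called higher and 2 lower. Their median log2 difference was 1.03 against -0.08 over all genes.

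Whether the center-to-margin difference itself differed between the layers was tested in 1 fit of 8 libraries. Tgfa and Ereg were called, 2 of 9 genes against 3.48% of all genes. Of all 540 genes called, 519 had the larger center-minus-margin difference in the epidermis, as Tgfa and Ereg did, and 21 had the smaller one. The center-minus-margin difference of Tgfa was larger in the epidermis than in the dermis by 3.38 ± 0.60 (log2, FDR = 0.0106), and that of Ereg by 2.99 ± 0.71 (FDR = 0.0446). The median of all genes in this contrast was 0.31, which is to be set against both values. The suprabasal keratinocyte markers summed to 1431 and 3456 CPM in the margin dermis and to 214 and 362 CPM in the 2 center dermis libraries used. Their part in this contrast was not tested. Epgn differed by 11.41 ± 2.78 (FDR = 0.0569), a value that depends on the prior count because its center dermis libraries had no reads. Both calls depended on single libraries. Tgfa lost its call without center dermis replicate 1 (FDR = 0.108), margin dermis replicate 1 (FDR = 0.0869) or 2 (FDR = 0.0593), or center epidermis replicate 2 (FDR = 0.0531). Ereg kept its call in only 2 of 8 such fits, those without a margin epidermis library, with the highest FDR of 0.262 without margin dermis replicate 2. Ereg also lost its call with RLE scaling (FDR = 0.0820) and with the edgeR 3 estimate (FDR = 0.128), where Epgn gained one (FDR = 0.0205). Junb was called here too (2.34 ± 0.32, FDR = 0.00372).

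**Figure D3:**
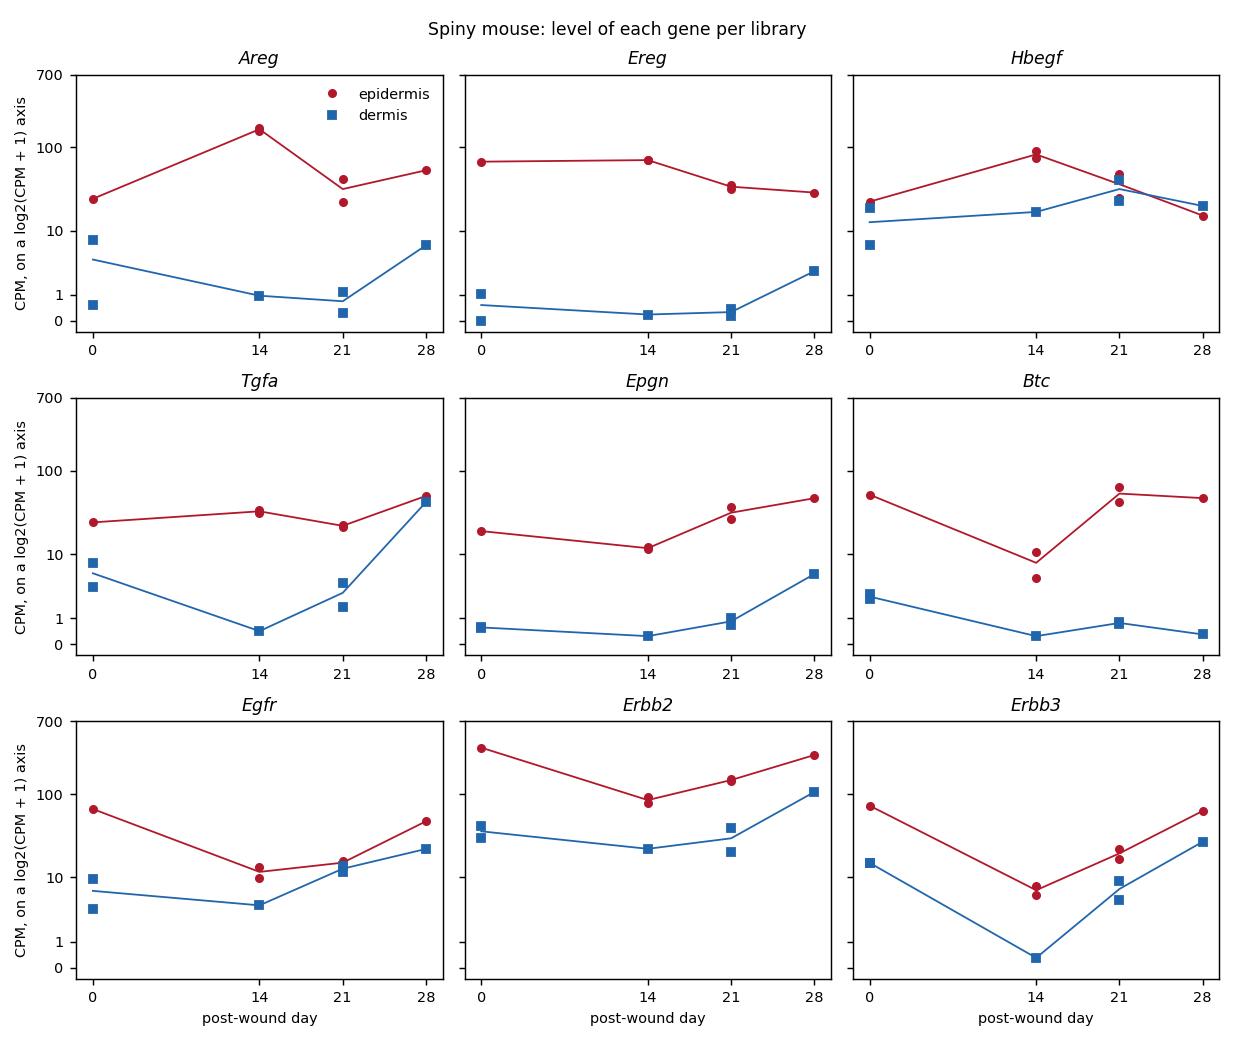
Level of each ligand and receptor in every spiny mouse library by post-wound day, in CPM on a log2(CPM + 1) axis, with lines through the group means; PWD0 and PWD28 epidermis and PWD14 and PWD28 dermis are 1 library each. In CPM, epidermal Areg peaks at PWD14, when Btc and the 3 receptors are at their lowest epidermal levels. After TMM scaling, Egfr (log2 fold change 0.17) and Erbb2 (-0.22) were not called between PWD14 and PWD21.

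The spiny mouse series followed the ligands over the days around follicle formation. Between PWD14 and PWD21, the epidermal days with 2 libraries each, 4 ligands were higher at PWD14 (Areg, Ereg, Hbegf and Tgfa) and 2 ligands and 1 receptor were lower (Epgn, Btc and Erbb3). These 7 of 9 genes stand against 46.6% of all genes called. Areg was 169 and 155 CPM at PWD14 and 41.9 and 22.6 CPM at PWD21 (2.86 ± 0.27, FDR = 5.2e-05), a 7.28-fold difference after TMM. Hbegf was 90.1 and 75.0 CPM against 48.2 and 25.3 CPM (1.70 ± 0.27, FDR = 0.000627). Ereg was 70.7 and 71.0 CPM against 32.5 and 36.3 CPM (1.60 ± 0.17, FDR = 7.9e-05). The replicates of each day lay closer to each other than to the other day.

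Btc ran opposite to Areg, its neighbor on the mouse chromosome. It was 4.88 and 10.5 CPM at PWD14 and 43.3 and 64.7 CPM at PWD21 (-2.23 ± 0.31, FDR = 0.000266). Epgn, at the other end of the group of neighbors in the mouse, was 12.1 and 11.6 CPM against 37.1 and 27.0 CPM (-0.90 ± 0.24, FDR = 0.0107). Erbb3 was 7.75 and 5.93 CPM against 17.2 and 22.6 CPM (-0.98 ± 0.27, FDR = 0.0126). All 3 were lower in both PWD14 libraries than in either PWD21 library. Epgn lost its call without PWD21 replicate 1 (FDR = 0.166) and Erbb3 without PWD21 replicate 2 (FDR = 0.113). Tgfa was 34.6 and 32.0 CPM against 23.0 and 21.6 CPM (1.13 ± 0.20, FDR = 0.000949), and the call of Tgfa was lost in 1 fit over all 12 spiny mouse libraries (FDR = 0.0582). Egfr (0.17 ± 0.26, FDR = 0.608) and Erbb2 (-0.22 ± 0.17, FDR = 0.298) were not called, though with library size alone Erbb2 was (-0.78, FDR = 0.00279). The sign of Egfr turned with library size alone (-0.38), as its CPM was lower at PWD14.

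Cell type markers of the epidermis also differed between these days. The wound-edge keratinocyte markers summed to 34801 to 56135 CPM at PWD14 and 10185 to 16569 CPM at PWD21, with 4 of 6 called higher. The neutrophil markers summed to 1512 to 2503 CPM against 181 to 408 CPM, nearly all of it S100a9, which keratinocytes also make. All 9 hair follicle markers were called lower at PWD14. Their part in the ligand differences was not tested. Around the ligands, the counts are to be set against 46.6% of all genes called, 3011 higher and 2991 lower at PWD14. Of 12 ERK response genes, 4 were called higher at PWD14 and none lower, among them Phlda1 (2.38), Ier2 (1.55) and Ier3 (1.15). Of 17 feedback inhibitors, 4 were called higher, led by the RAS-ERK inhibitor Spry2 (1.58), and 3 lower, led by Lrig3 (-1.84). Shedding genes went down, with 5 of 9 called lower and 1 higher. They included Adam17 (-1.30 ± 0.21, FDR = 0.000616), a sheddase of EGFR ligands, and its stabilizing partner Frmd8 (-1.52). Among the other ligands, the ERBB3 and ERBB4 ligand Nrg1 was higher (1.82) and Nrg4 (-3.51) and Egf itself (-2.15) were lower. Of 23 adaptors and RAS-ERK components, 7 were higher, led by Map2k2 (1.94) and Hras (1.31), and 6 lower, led by Plcg1 (-1.29).

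Against unwounded epidermis, a single library assumed to vary like the other groups, 6 of 9 genes were called at PWD14, where 35.4% of all genes were. The same PWD0 library served as the control of the 3 wound days, so the comparisons are not independent. Areg was higher, at 169 and 155 CPM against 24.6 CPM (3.44 ± 0.87, FDR = 0.0116), and Hbegf was higher, at 90.1 and 75.0 CPM against 22.8 CPM (2.58 ± 0.62, FDR = 0.00889). The 3 receptors and Btc were lower. Erbb3 was 7.75 and 5.93 CPM against 73.5 CPM (-2.71 ± 0.39, FDR = 0.000824). Egfr was 13.6 and 9.89 CPM against 67 CPM (-1.79 ± 0.40, FDR = 0.00645), and Erbb2 was 91.8 and 79.0 CPM against 348 CPM (-1.31 ± 0.36, FDR = 0.0170). Both PWD14 libraries lay below the PWD0 library for every receptor and for Btc, and above it for Areg and Hbegf. Without PWD14 replicate 1, Areg (FDR = 0.0604) and Erbb2 (FDR = 0.0505) lost their calls, and without PWD14 replicate 2, Areg (FDR = 0.0530), Egfr (FDR = 0.0537) and Erbb2 (FDR = 0.0922) did.

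At PWD21 the ligands were no longer called against PWD0. Egfr, at 14.5 and 16.2 CPM (-1.93 ± 0.40, FDR = 0.0145), and Erbb3, at 17.2 and 22.6 CPM (-1.69 ± 0.38, FDR = 0.0202), were called lower, 2 of 9 against 11.5% of all genes. Erbb2 (-1.05, FDR = 0.0840) was called by DESeq2 (FDR = 0.0386). Egfr and Erbb3 each lost the call without either PWD21 library (FDR of 0.0956 and 0.0855 for Egfr and of 0.140 and 0.0851 for Erbb3). At PWD28, when 22108 CPM of hair follicle markers were present against 215 CPM at PWD0, none of 9 genes was called by edgeR, against 0.621% of all genes. By edgeR, 2 had an unadjusted p under 0.05, Ereg (-1.32 ± 0.54) and Epgn (1.20 ± 0.41), as did 1424 of all 15942 genes tested. DESeq2, the likelihood-ratio test and the edgeR 3 estimate also called none. Egfr was 48.1 CPM, Erbb2 286 CPM and Erbb3 63.7 CPM at PWD28, all between their PWD21 and PWD0 values. Of the pathway lists at PWD14, 5 of 10 shedding genes and 6 of 18 feedback inhibitors were called lower than at PWD0 and 0 and 1 higher. Of all genes, 35.4% were called there. At PWD21 the counts were 0 and 3 lower and none higher, against 11.5% of all genes.

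In the spiny mouse dermis, between PWD21 and PWD0, the days with 2 dermal libraries each, none of the 7 genes tested was called by edgeR, against 26.2% of all genes. By edgeR, 4 of the 7 had an unadjusted p under 0.05, as did 5902 of all 14481 genes tested. DESeq2 called 2, Hbegf (FDR = 0.0394) and Erbb3 (FDR = 0.0425), and edgeR's likelihood-ratio test 3. Hbegf was 23.1 and 41.3 CPM at PWD21 and 6.53 and 19.0 CPM at PWD0 (1.29 ± 0.48, FDR = 0.0791). Btc was 0.821 and 0.691 CPM against 2.29 and 2.79 CPM (-1.85 ± 0.62, FDR = 0.0583). Erbb3 was 5.11 and 9.09 CPM against 15.3 and 15.1 CPM (-1.20 ± 0.42, FDR = 0.0665). The days did not overlap in these 3 genes. Without PWD0 replicate 2, Hbegf (FDR = 0.000142), Erbb3 (FDR = 0.0158) and Egfr (FDR = 0.0175) were called, and without PWD0 replicate 1, Areg (-3.34, FDR = 3.6e-06) was.

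The 2 unwounded dermis libraries carried keratinocyte RNA. Their basal markers summed to 5686 to 9847 CPM, against 529 to 2009 CPM in the 4 wound dermis libraries, and their mast cell and T cell markers to 4771 to 5321 CPM against 98.5 to 1303 CPM. Whether they account for Btc and Erbb3 at PWD0 was not tested. In the single PWD14 library, 3 of 9 genes were called lower than at PWD0, against 26.6% of all genes. Erbb3 was 0.294 CPM (-5.43 ± 0.67, FDR = 0.00032), Tgfa 0.412 CPM against 3.53 and 7.64 CPM (-3.50 ± 0.77, FDR = 0.00793) and Btc 0.235 CPM against 2.29 and 2.79 CPM (-3.16 ± 0.81, FDR = 0.0162). Btc lost its call without PWD0 replicate 1 (FDR = 0.0506) or 2 (FDR = 0.0887), and Tgfa without PWD0 replicate 2 (FDR = 0.0607), while Areg gained one without PWD0 replicate 1 (FDR = 0.0388).

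In the single PWD28 dermis library 5 of 9 genes were called against the same PWD0 libraries, where 11.9% of all genes were. Tgfa reached 42.9 CPM against 3.53 and 7.64 CPM (2.77 ± 0.49, FDR = 0.00637). Epgn was 5.46 CPM against 0.529 and 0.588 CPM (3.10 ± 0.55, FDR = 0.00612), and the calls of both held in all 8 fits that left out 1 library. Egfr was 22.5 CPM against 3.70 and 9.70 CPM (1.58 ± 0.44, FDR = 0.0410), and Erbb2 106 CPM against 30.9 and 42.3 CPM (1.37 ± 0.37, FDR = 0.0359). Btc, with 3 counts (0.293 CPM), was lower (-3.25 ± 0.86, FDR = 0.0356). Of the 8 fits that left out 1 library, these calls held in 1 for Egfr, 3 for Erbb2 and 5 for Btc, with FDR up to 0.129 for Egfr and 0.116 for Erbb2, both without PWD0 replicate 1, and up to 0.113 for Btc, also without PWD0 replicate 1. Ereg was 2.73 CPM in the PWD28 library against 0 and 1.03 CPM and was not called (2.13, FDR = 0.112). DESeq2 (FDR = 0.0327) and the likelihood-ratio test (FDR = 0.0101) called it. The hair follicle markers summed to 29979 CPM in this library, against 194 to 7437 CPM at PWD0, and 3 of 9 were called higher. Their part in Tgfa, Epgn and the receptors was not tested.

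**Figure D4:**
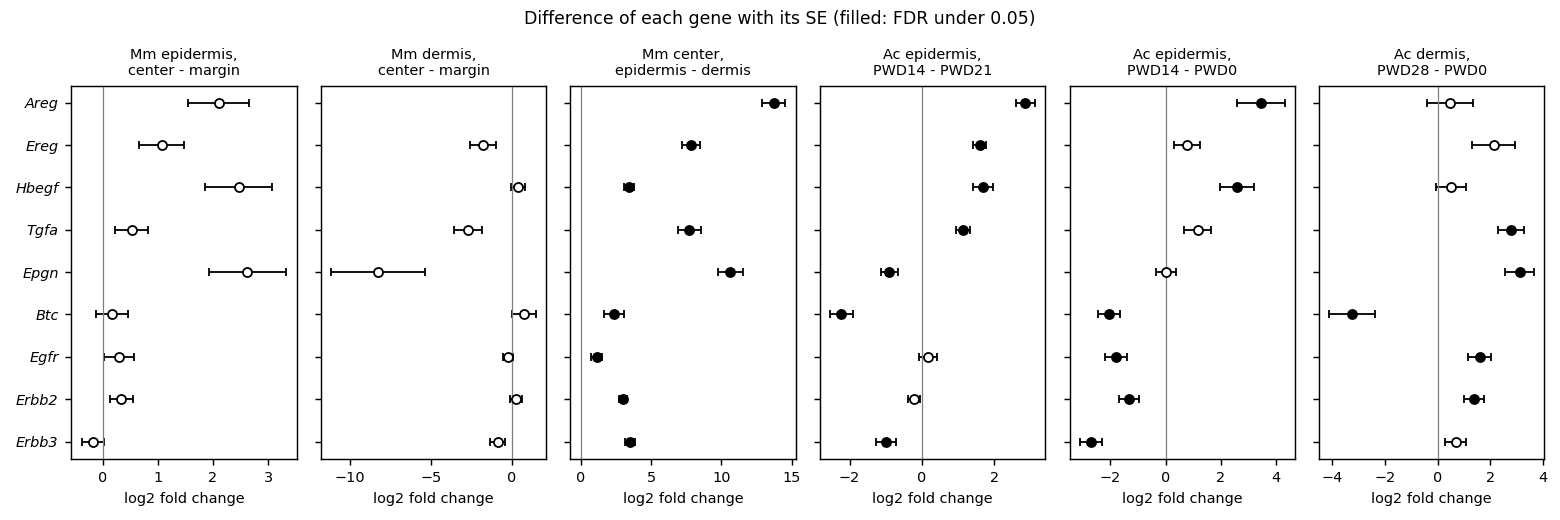
Log2 fold change of each gene with its SE in 6 comparisons (Mm, lab mouse; Ac, spiny mouse; filled points, FDR under 0.05); each panel has its own axis. The points of Areg in Mm center epidermis against dermis (13.70) and Epgn in Mm dermis (-8.27) rest on groups with no reads and depend on the prior count.

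The 2 layers of the spiny mouse could be compared at PWD21. Of 9 genes, 7 were called higher in the epidermis, against 62.9% of all genes in either direction, and each of these calls held in every alternative run, including the fits that left out 1 library. Ereg was 32.5 and 36.3 CPM in the epidermis and 0.137 and 0.374 CPM in the dermis (7.05 ± 0.40, FDR = 1.0e-05). Btc was 43.3 and 64.7 CPM against 0.821 and 0.691 CPM (6.27 ± 0.31, FDR = 6.9e-06). Areg was 41.9 and 22.6 CPM against 0.228 and 1.12 CPM (5.58 ± 0.64, FDR = 0.00022), and Epgn 37.1 and 27.0 CPM against 1.0 and 0.662 CPM (5.43 ± 0.36, FDR = 1.8e-05). None of these ligands overlapped between the layers. Hbegf, at 48.2 and 25.3 CPM against 23.1 and 41.3 CPM (0.32 ± 0.40, FDR = 0.512), and Egfr, at 14.5 and 16.2 CPM against 11.9 and 13.9 CPM (0.36 ± 0.24, FDR = 0.224), were not called. Shedding genes were mostly higher in the epidermis, with 7 of 10 called higher, led by Rhbdl2 (5.12) and Rhbdf2 (3.81), and 1 lower, Adam12 (-8.81). Of 18 feedback inhibitors 9 were lower, led by Spry4 (-5.42), and 4 higher, led by the EGFR ubiquitin ligase Cblc (6.16).

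Egfr and Btc changed differently between the layers. In the test of whether the PWD21-to-PWD0 difference differed, 2 of 9 genes were called, against 25% of all genes. For Egfr, the epidermal difference (-1.93) was below the dermal one, where the values went from 3.70 and 9.70 CPM to 11.9 and 13.9 CPM, by 2.85 on the log2 scale (-2.85 ± 0.55, FDR = 0.00535). For Btc, the epidermal difference (0.24) was above the dermal one by 2.02 ± 0.65 (FDR = 0.0452). The call of Egfr held in every alternative run. That of Btc was lost without any 1 of the 2 PWD0 dermis libraries (FDR = 0.102 and 0.133), the 2 PWD21 dermis libraries (FDR = 0.0687 and 0.112) or the 2 PWD21 epidermis libraries (FDR = 0.0679 and 0.133), and with library size alone (FDR = 0.0786). Areg was called by the likelihood-ratio test (FDR = 0.0493) and with no low-count filter (FDR = 0.0483). The PWD0 epidermis rests on 1 library.

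The ligands were also ranked within each library, per kilobase of mouse exon (CPM per kb). For the spiny mouse, how completely the reads of each gene aligned to the mouse genome was not measured, which limits the order among its genes. In lab mouse epidermis Ereg was the highest of the 9 genes, at 142 ± 29.8 CPM per kb in the center and 62.2 ± 29.3 at the margin (mean ± SD, n = 2), separate from the next gene in both. It made up 44.9 to 49.2% of the summed ligands in the center and 56.4 to 58.7% at the margin. Behind it, Epgn, Hbegf, Areg and Tgfa overlapped in the center, at means of 25.3 to 53.7 CPM per kb. In the center dermis Hbegf (7.10 ± 3.76) and Egfr (7.02 ± 3.51, n = 5) were highest and overlapped.

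In the spiny mouse epidermis at PWD14, Areg was highest, at 134 ± 8.29 CPM per kb (n = 2), with Hbegf next at 34.8 ± 4.51 and separate from it. Areg made up 66.0 to 66.2% of the summed ligands at PWD14, 25.2% at PWD0, 23.1 to 33.4% at PWD21 and 39.5% at PWD28. At PWD21, Areg (26.5 ± 11.2), Btc (18.8 ± 5.26), Epgn (17.7 ± 3.96) and Hbegf (15.5 ± 6.79) each overlapped the next in order. In every dermis library of either species Hbegf was the highest ligand, at 37.0 to 87.3% of the sum, except the spiny mouse PWD28 library, where Tgfa made up 35.0% and Hbegf 31.4%. Erbb2 made up most of the receptor sum in all 12 spiny mouse libraries, at 67.9 to 91.2%.

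**Figure D5:**
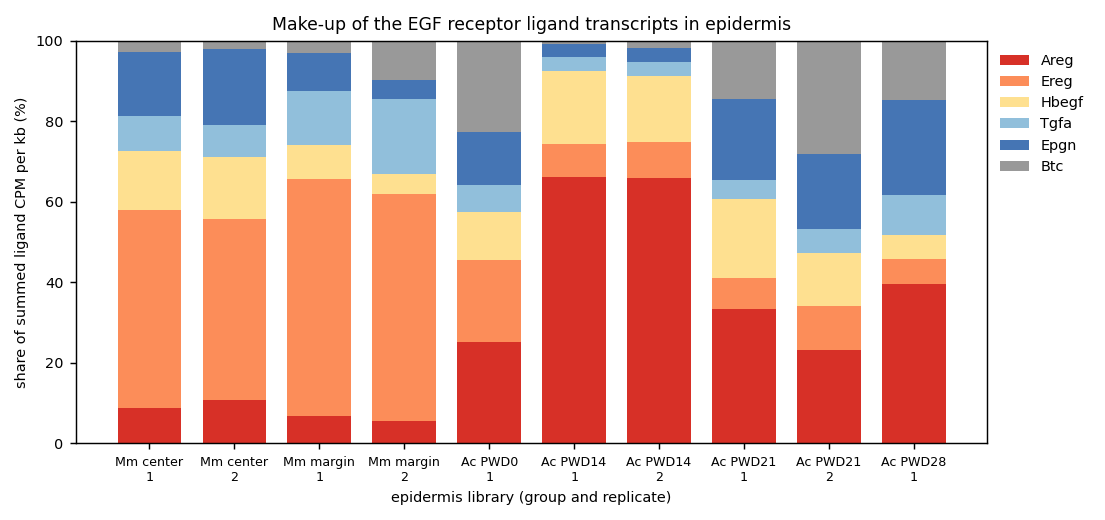
Share of each ligand in the summed level of the 6 ligands (percent, from CPM per kb of exon), with 1 bar for each epidermis library of either species. Ereg fills 44.9 to 58.7% of every lab mouse bar and Areg 66.0 to 66.2% of the 2 spiny mouse PWD14 bars.

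Of the other ligands, the neuregulin Nrg1 was 9.54 to 16.9 CPM in lab mouse center epidermis and 0.453 to 1.32 CPM at the margin. The difference was not called here, though the study listed Nrg1 as differentially expressed between these regions. In spiny mouse PWD14 dermis Nrg1 was 14.4 CPM. Nrg4 was at most 11.9 CPM and Nrg2 at most 9.07 CPM, in spiny mouse PWD0 epidermis and PWD28 dermis. Egf, which gave the family its name, was at most 5.29 CPM in any library. The fourth receptor, Erbb4, was at most 1.33 CPM, in PWD28 epidermis, and Nrg3 at most 0.735 CPM. Over the 13 lab mouse libraries, the genes whose log2(TMM CPM + 1) was most like that of Areg were Kcnv1 (Pearson r = 0.987), Serpinb3c (0.985) and Tcf23 (0.982), and those most like Ereg were Sqle (0.984), Cpd (0.983) and Sort1 (0.981). Those most like Erbb3 were Cdh1 (0.991), Evpl (0.990) and Ly6g6c (0.987), and those most like Tgfa were Tfap2a (0.992), Sp6 (0.991) and Prom2 (0.990). Over the 12 spiny mouse libraries, Eid3 (0.975) was most like Areg, Krt2 (0.985) most like Epgn, Skint8 (0.991) most like Btc and Myo6 (0.994) most like Erbb3. These correlations describe libraries that share layers, read types and days, and no test was made of them.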

How the data were processed

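The authors sequenced polyA RNA of separated epidermis and dermis (75-base reads: strand-specific paired-end for lab mouse epidermis, strand-specific single-end for lab mouse dermis, not strand-specific single-end for spiny mouse), aligned it to mm10 and deposited raw read counts per RefSeq gene symbol from HTSeq 0.6.0, 1 file per library. The submitters' processing notes name STAR 2.4.1d and edgeR. The strand option of the counting is not given in the sources used here, and in the spiny mouse libraries a gene and an overlapping or antisense partner cannot be told apart. Spiny mouse reads were counted on mouse genes, with 24.4 to 52.9% of the lines counted on genes against 57.7 to 69.8% in the lab mouse.

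From these counts, CPM was computed over the 24500 gene rows, without the 5 summary lines, and CPM per kb with exon lengths from the GENCODE annotation of the same build. Tests used edgeR 4.0.16 (R 4.3.3, limma 3.58.1): filterByExpr, TMM, the quasi-likelihood test with a prior count of 0.125 and Benjamini-Hochberg adjustment over all genes tested. Dermis center was compared with margin using WT replicates 1 and 2, and with KO using replicates 3 to 5, the sets named in the study. Comparisons that include a day with 1 library were fitted over all 12 spiny mouse libraries, where a lone sample is assumed to vary like the groups with 2. The edgeR 3 estimate of the quasi-likelihood dispersion was run first. The edgeR 4 estimate was made the reported one after the values of both were seen, to process the files as an earlier account of the whole series did, and this changed 5 of 131 calls. DESeq2 1.42.0, edgeR's likelihood-ratio test, other scalings, no low-count filter, 1 fit per species and leaving out each library were alternatives. The tests were checked on simulated counts, where few log2 fold changes of 1 were called in most comparisons. The share called was 0% for lab mouse epidermis center against margin, 6% for dermis and 1% for KO against WT. For spiny mouse dermis at PWD21 against PWD0 it was 8%, and for epidermis at PWD14 against PWD21 it was highest, at 57%. At a log2 fold change of 3, these shares were 67%, 60%, 47%, 92% and 92%. An uncalled gene may therefore still differ.

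All 9 genes were looked at in every comparison, though not every uncalled one is named in the text. From the pathway lists, at most the 3 called genes with the largest fold change per list were named, and likeness was ranked by Pearson's r among genes averaging at least 1 CPM. The genes and lists were chosen with earlier results of these data known. Folds against groups with no reads used a floor of 3 counts in a library, which is 0.0347 to 0.155 CPM in the lab mouse and 0.0863 to 0.529 CPM in the spiny mouse and covers counting error only. Promoter sequences are from RefSeq, where 6 of the 9 genes were matched. Nrdc, of the shedding list, and the T cell markers Trac and Trdc were not among the counted symbols. Replicates differed by more than sampling noise (chi-square per degree of freedom of 28.3 to 375).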

Additional observations from a re-analysis of the deposited data

Results flagged for a closer look

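Some values of the 9 genes stood apart within the 5 WT center dermis libraries of the lab mouse, by the gap between the extreme library and its nearest neighbor relative to the range. Hbegf reached 32.2 CPM and Btc 19.1 CPM, both in replicate 2, and Epgn 0.554 CPM in replicate 4, where the other 4 libraries had no read. Chance flags about 1 gene in 20 by this criterion.

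A further group of results differed between layers by a test of the difference itself. In the lab mouse, the center-to-margin difference was larger in epidermis than in dermis for Tgfa (3.38 on the log2 scale, FDR = 0.0106 by edgeR) and Ereg (2.99, FDR = 0.0446), where the median of all genes was 0.31. Of all 540 genes called there, 519 went in this direction. In the spiny mouse, the difference between PWD21 and PWD0 was lower in epidermis than in dermis for Egfr (-2.85, FDR = 0.00535) and higher for Btc (2.02, FDR = 0.0452). The margin dermis of the lab mouse held more keratinocyte markers than the center dermis. The layers of the lab mouse also differ in read type, and the unwounded epidermis of the spiny mouse is 1 library. The part of each of these was not tested.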

How the results depend on the processing

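Over all alternatives, no called value of the 9 genes changed sign, 589 kept their call and 68 lost it, while of the uncalled values 923 stayed uncalled, 69 were called and 41 changed sign. Where a count or sign moved, the cause was not tested. The edgeR 3 estimate, leaving out a library where 1 is then left in a group, and 1 fit per species also change how the spread is estimated. No paired analysis was possible because the labels give no replicate numbers. Depth limited the ligands of the dermis, where a floor of 3 counts was up to 0.529 CPM.

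Of the 9 genes, the number called in lab mouse epidermis between center and margin was 0, and 3 by DESeq2, 3 by the likelihood-ratio test, 1 (Hbegf) in 1 fit of all libraries of the species and 0 to 6 when leaving out each library. In the dermis it was 0, and 1 by the likelihood-ratio test and 1 with all 5 WT centers. For KO against WT it was 0, and 2 by DESeq2, 2 in 1 fit of all libraries and 0 to 4 leaving out a library. For the region by layer test it was 2, and 1 with RLE scaling, 4 by the likelihood-ratio test and 0 to 4 leaving out a library. In spiny mouse dermis at PWD21 against PWD0 it was 0, and 2 by DESeq2, 3 by the likelihood-ratio test, 4 in 1 fit of all libraries and 0 to 3 leaving out a library. Leaving out each library gave 3 to 7 (6 as reported) for epidermis at PWD14 against PWD0, 0 to 3 (2) at PWD21 and, in dermis, 1 to 3 (3) at PWD14 and 2 to 5 (5) at PWD28. For the layer by day test it was 2, and 1 with library size alone, 3 by the likelihood-ratio test, 3 with no low-count filter and 1 to 2 leaving out a library.

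Of all genes, 176 were called between center and margin in epidermis, and 1511 by DESeq2, 1533 by the likelihood-ratio test, 0 with the edgeR 3 estimate, 397 in 1 fit of all libraries and 70 to 7405 leaving out a library. In dermis 125 were called, and 738, 886 and 54 by the first 3 of these, 323 with all 5 WT centers and 19 to 241 leaving out a library. For KO against WT the 8 became 787, 214 and 2, 444 in 1 fit of all libraries, 190 with all 5 WT centers and 1 to 3353 leaving out a library. For the region by layer test the 540 became 1125 by DESeq2, 1485 by the likelihood-ratio test and 167 to 1343. In the spiny mouse, the likelihood-ratio test called 2941 against 1830 in epidermis at PWD21 and 3030 against 1901 in dermis at PWD28, and at PWD28 in epidermis the 99 became 300 by DESeq2, 433 by the likelihood-ratio test, 47 with the edgeR 3 estimate and 23 to 273. Leaving out each library gave 5054 to 7885 (7777 as reported) between layers in the center, 4508 to 7623 (7141) at the margin, 3470 to 6635 (6002) for PWD14 against PWD21, 1311 to 5118 (3792) for dermis and 368 to 2706 for epidermis at PWD21, 1234 to 2739 for dermis at PWD28 and 1976 to 4445 (3978) for the layer by day test.

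With library size alone in place of TMM, higher and lower calls among all genes went from 4024 and 3753 to 2304 and 5834 between layers in the center, from 3126 and 4015 to 1599 and 6192 at the margin, from 3011 and 2991 to 1335 and 5721 for PWD14 against PWD21, and against PWD0 from 2586 and 3053 to 1243 and 5626 at PWD14 and from 770 and 1060 to 466 and 1494 at PWD21 in epidermis. In dermis they went from 1899 and 2346 to 1280 and 2739 at PWD14 and from 994 and 907 to 1322 and 722 at PWD28, and in the layer by day test from 1959 and 2019 to 1447 and 2386.

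The values that changed sign were log2 fold changes of uncalled genes. In lab mouse dermis between center and margin, 1 fit of all libraries and all 5 WT centers gave -0.091 and -0.062 for Hbegf, -0.087 and -0.075 for Btc and 0.61 and 0.64 for Egfr. With library size alone the value was -0.090 for Hbegf between layers at the margin, -0.38 for Egfr at PWD14 against PWD21, -0.70 for Epgn at PWD14 against PWD0 and -0.14 for Tgfa at PWD21 against PWD0, where RLE scaling gave -0.0048 and DESeq2 -0.0052. Leaving out each library in the lab mouse gave -0.075 to 0.53 for Btc in epidermis between center and margin. In dermis it gave -0.14 to 0.78 for Hbegf, -0.35 to 1.76 for Btc, -0.56 to 0.17 for Egfr and -0.016 to 0.47 for Erbb2, and for KO against WT -3.68 to 1.49 for Ereg and -0.17 to 0.96 for Hbegf. It gave -0.37 to 1.37 for Hbegf between layers at the margin and, in the region by layer test, -1.58 to 0.55 for Btc and -0.11 to 0.41 for Erbb2. In spiny mouse epidermis it gave -0.12 to 0.42 for Egfr at PWD14 against PWD21, -0.047 to 0.082 for Epgn at PWD14 against PWD0, and -0.027 to 0.12 for Tgfa and -0.055 to 0.46 for Btc at PWD21 against PWD0. In dermis against PWD0 it gave -4.15 to 0.23 for Areg and -0.95 to 0.085 for Erbb2 at PWD21, -2.69 to 0.95 for Areg, -2.17 to 4.79 for Ereg and -0.87 to 0.32 for Egfr at PWD14, and -0.33 to 3.31 for Areg at PWD28. It gave -0.28 to 0.84 for Hbegf between the layers at PWD21 and, in the layer by day test, -5.96 to 1.22 for Ereg and -1.28 to 0.10 for Hbegf.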
